A study of Mus musculus with 6 samples.

Results

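The genes described here encode the proteins of the cytosolic ribosome. They were chosen by name, as protein-coding genes of GENCODE M21 whose symbol starts with Rpl or Rps and a number or is *Rplp0*, *Rplp1*, *Rplp2* or *Rpsa*, without the S6 kinases. The rule found 92 genes among the 55401 gene identifiers of the count tables. Of these, 77 encode the canonical proteins of the ribosome, 46 of the large subunit and 31 of the small subunit. A further 8 are paralogs with their own gene, and 7 have a matching name without being a ribosomal protein gene of either kind, namely *Rps19bp1*, which encodes a protein that binds RPS19, and 6 named as pseudogenes. The question was whether these genes differed as a family between Atrx-cKO and control bone, and whether *Rpl30* departed from the rest. *Rpl30* was singled out with earlier results of these data known, so its p-values are not those of a gene chosen in advance.

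A ribosome holds 1 copy of nearly every canonical protein, so cells make these proteins in matched amounts. Their mRNAs are among the most abundant of any cell, and most begin with a 5′ terminal oligopyrimidine tract (5′ TOP), a C followed by a run of pyrimidines through which mTORC1 and LARP1 set their translation. The genes are also known for the many retrocopies that their mRNAs have left across the genome, most of them processed pseudogenes.

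Libraries were made from poly(A)-selected RNA of whole tibias, taken from male mice that were 8 weeks old, 3 libraries of Atrx-cKO and 3 of control. Atrx-cKO mice carried Osterix-Cre and a floxed *Atrx* allele on their single X chromosome (labelled Osterix-Cre; Atrxf/y), and control mice carried the floxed allele alone (Atrxf/y). Osterix-Cre is a Tet-off transgene (Sp7-tTA,tetO-EGFP/cre) that is active in preosteoblasts, and doxycycline kept it silent from conception to 3 weeks of age. Control mice lacked the transgene, so its presence and the deletion of *Atrx* cannot be told apart. Whole tibia holds bone, marrow and attached muscle, and in such bulk RNA fewer cells of a type and less RNA per cell cannot be told apart.

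The libraries held 50977777 to 70571655 counts on genes. *Atrx* itself stood at 163 ± 9.54 CPM in Atrx-cKO and 169 ± 4.98 CPM in control (SD, n = 3), so its count did not separate the genotypes, and a whole-gene count does not resolve the floxed exons. CPM here are counts relative to the library size after TMM scaling. Osteoblast markers were high in every library, with 8 genes summing to 108816 to 185200 CPM. Control 3 stood apart in skeletal muscle markers, with 13249 CPM over 10 genes against 774 to 2708 CPM in the other 5 libraries. The summed level of none of the 9 marker lists (osteoblast, osteocyte, chondrocyte, osteoclast, adipocyte, skeletal muscle, erythroid, B cell and neutrophil) separated the genotypes, with exact permutation p of 0.2 or more.

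*Rpl30* was the canonical gene with the largest difference between the genotypes. It encodes a large-subunit protein that also binds the selenocysteine insertion elements of selenoprotein mRNAs. *Rpl30* (ENSMUSG00000058600; GRCm38 chr15:34440505-34443640, minus strand) stood at 124, 114 and 111 CPM in the Atrx-cKO libraries and at 79.4, 70.3 and 66.7 CPM in the control libraries. Every Atrx-cKO library was above every control library, and the spread within each genotype was small. The means were 116 ± 7.09 and 72.1 ± 6.59 CPM (SD, n = 3), 1.61-fold higher in Atrx-cKO.

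The log2 fold change of *Rpl30* was 0.69 (SE 0.092, 95% confidence interval 0.47 to 0.90), with an unadjusted p of 9.14e-05 in the quasi-likelihood test of edgeR. Adjusted over the 20636 genes tested, the p was 0.236 and did not pass the threshold of 0.05. The Wald test of DESeq2 gave the same log2 fold change of 0.69 with an adjusted p of 1.70e-05, which did. Without Atrx-cKO 1 or control 3, the libraries that stood apart in other respects, the log2 fold change in edgeR was 0.64 or 0.62. In edgeR fits under other settings the adjusted p ran from 0.0270 without the expression filter to 0.99997 without control 2, and in DESeq2 fits without 1 library from 1.91e-10 to 0.00272. The change was below a log2 fold change of 1, a commonly used fold threshold. *Rpl30* was the single gene of the 88 kept by the expression filter with an unadjusted p under 0.05 in edgeR, where 1.59% of all genes tested were higher and 2.05% lower at that level. No ribosomal protein gene passed an adjusted p of 0.05 in edgeR, against 0.0145% of genes called higher and 0% called lower. DESeq2 called *Rpl30* higher and no ribosomal protein gene lower, against 0.0731% and 0.0693% of the 25992 genes to which it gave an adjusted p.

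**Figure D1:**
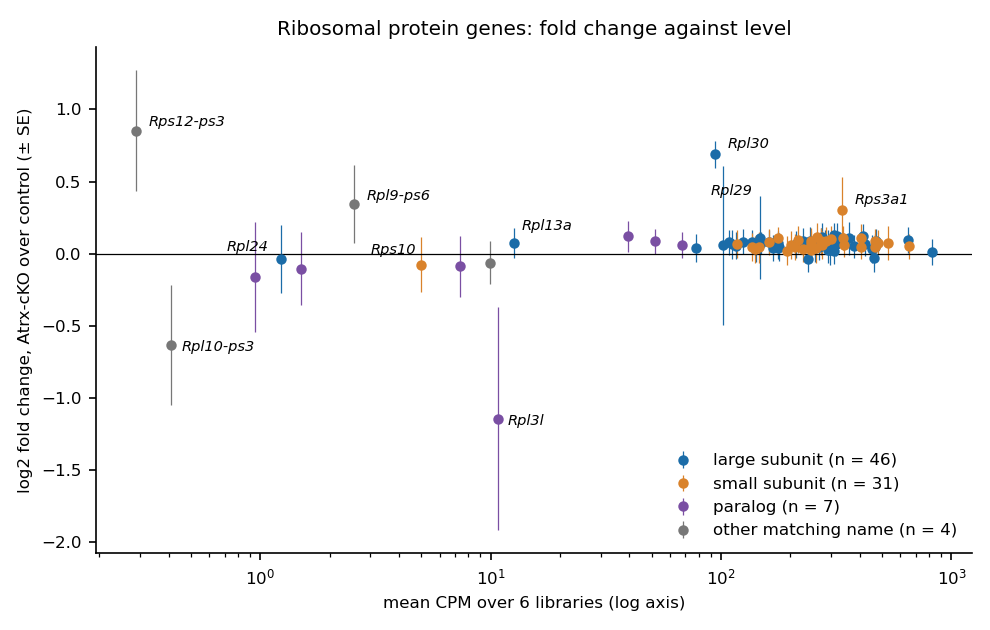
Log2 fold change (Atrx-cKO over control, edgeR, with SE) of the 88 ribosomal protein genes kept by the expression filter against their mean CPM over 6 libraries on a log axis, coloured by class. Rpl30 lies at 0.69 above a dense row of canonical genes around 0.07, and the other wide departures are of genes with wide SEs.

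The other canonical genes formed a narrow distribution from which *Rpl30* was set apart. All 77 passed the expression filter, with a median log2 fold change of 0.07 (quartiles 0.04 and 0.09). Without *Rpl30* the SD over the 76 others was 0.047, and their values ran from -0.08 for *Rps10* to 0.30 for *Rps3a1*, which was second to *Rpl30*. The upper bound of the 95% confidence interval lay under the lower bound of *Rpl30* for 72 of these 76 genes. The 4 exceptions were *Rps3a1*, *Rpl26*, *Rpl29* and *Rpl24*, whose libraries disagreed within a genotype or whose counts were low.

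Measured within each library, *Rpl30* took a nearly constant share of the ribosomal protein mRNA in Atrx-cKO. Of every 10000 counts on canonical genes, 53.9, 54.9 and 54.6 fell on *Rpl30* in the Atrx-cKO libraries and 38.4, 35.2 and 32.9 in the control libraries. These shares do not depend on how the libraries were scaled. The log2 ratio of *Rpl30* to the sum of the other canonical genes was higher by 0.62 in Atrx-cKO, with no overlap of the genotypes. The exact two-sided permutation test gave p = 0.1, the smallest value that 3 against 3 libraries allow. By the same ratio, 2 of the 77 canonical genes had all Atrx-cKO libraries above all control libraries, *Rpl30* and *Rpl6*, the latter by 0.05. All Atrx-cKO libraries were below for 3 genes, *Rpl31*, *Rps25* and *Rps15*, with differences of -0.11, -0.04 and -0.05. A share over all genes was not computed for this ratio. In CPM, groups did not overlap for 4.3% of all genes tested with Atrx-cKO above and for 4.01% with Atrx-cKO below.

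The locus of *Rpl30* overlaps another gene. *D730044K07Rik*, annotated as TEC (to be experimentally verified) on the opposite strand (chr15:34442980-34444812), shares 616 exon bases with *Rpl30*, 20.4% of the exon length. Its counts were 2859, 2608 and 2561 in Atrx-cKO and 1892, 1697 and 1435 in control, with a log2 fold change of 0.64 (SE 0.11, adjusted p = 0.790 in edgeR and 0.00306 in DESeq2, the latter from 2.31e-06 to 0.0958 in fits without 1 library). It was higher in every Atrx-cKO library, as *Rpl30* was. The labels call the libraries strand specific, but the strand setting of the counting is not given in the sources used here, and whether the reads of the 2 genes were told apart was not tested.

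Near-identical copies of *Rpl30* took few of the counts placed on genes. Entries listed as not uniquely aligned, from 3.69% of the table in control 2 to 4.56% in Atrx-cKO 1, are on no gene. Reads that fit a gene and its copy alike may be among them, and their share was not tested. The 12 copies that matched its coding sequence at 95% identity or more held 1.49% to 4.08% of the summed counts of gene and copies. The most counted was the processed pseudogene *Gm12191* (chr11:49678710-49679057), whose sequence differs from the *Rpl30* coding sequence by the single substitution G96A, counted from 1 at the A of the start codon. The stretch that holds it is shown for both, with the differing base in capitals.
Rpl30: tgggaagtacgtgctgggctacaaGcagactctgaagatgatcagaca
Gm12191: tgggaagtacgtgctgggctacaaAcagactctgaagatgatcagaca
*Gm12191* stood at 1.88, 1.21 and 1.60 CPM in Atrx-cKO and 1.53, 1.34 and 1.89 CPM in control, with a log2 fold change of -0.02 (95% confidence interval -0.62 to 0.58). *Rpl30-ps10* (chrX:71803688-71804034), a processed pseudogene under the expression filter, held 4, 3 and 6 counts in Atrx-cKO and 18, 9 and 13 in control. It was lower in every Atrx-cKO library, with an adjusted p of 0.99998 in DESeq2. With the copies added to their gene, the log2 fold change of *Rpl30* was 0.67, with an adjusted p of 0.262 in edgeR.

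Among the 10 tested genes on either side of *Rpl30* on chromosome 15, the nearest 3 on the low-coordinate side had log2 fold changes below 0. *Matn2*, which encodes the extracellular matrix protein matrilin-2 and ends 4231 bases from *Rpl30*, stood at 18.7, 24.9 and 23.0 CPM in Atrx-cKO and 31.1, 42.4 and 39.5 CPM in control. All of its Atrx-cKO libraries were below all of its control libraries. Its log2 fold change was -0.76 (SE 0.15, adjusted p = 0.992 in edgeR and 0.00381 in DESeq2, the latter from 5.60e-06 to 0.160 in fits without 1 library). *Laptm4b*, which encodes a lysosomal membrane protein, stood at 23.4, 23.1 and 21.2 CPM against 27.8, 29.1 and 30.1 CPM, with a log2 fold change of -0.36 (SE 0.086; adjusted p = 0.992 in edgeR and 0.290 in DESeq2). *9430069I07Rik*, which lies within *Matn2* on the other strand, had a log2 fold change of -0.64 (SE 0.24) at 1.26 to 1.96 mean CPM. Of the 19 genes other than *Rpl30* and *D730044K07Rik*, 4 had an unadjusted p under 0.05 in edgeR, these 3 and *Vps13b* at 0.21. Over all genes tested, 1.59% were higher and 2.05% lower at that level. None of the 19 passed the adjusted threshold in edgeR. The median of the 19 was -0.01. *Erich5*, the next gene on the high-coordinate side after *D730044K07Rik*, was at -0.73 (SE 0.82) on 1 to 21 counts a library.

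**Figure D2:**
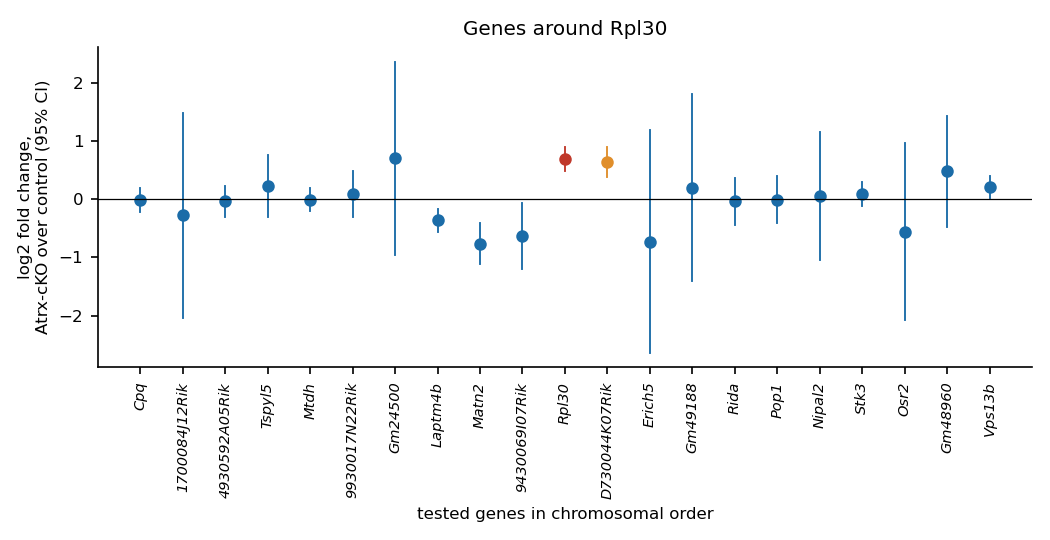
Log2 fold change (Atrx-cKO over control, edgeR) with 95% confidence intervals for Rpl30 (red), the overlapping D730044K07Rik (orange) and 19 other tested genes (blue), in chromosomal order. Rpl30 and D730044K07Rik lie at 0.69 and 0.64, and Laptm4b, Matn2 and 9430069I07Rik to their left lie at -0.36, -0.76 and -0.64.

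After TMM scaling the family as a whole shifted little, and the shift rested on 1 library. The log2 fold change was above 0 for 73 of the 77 canonical genes and 78 of the 88 kept, where 51.2% of all genes tested were above 0. Atrx-cKO 1 held the highest value of 71 of the 77 canonical genes, and control 2 held the lowest value of 35. Without Atrx-cKO 1, the count above 0 was 42 of 77. With all libraries and scaling by library size alone, 76 of 77 were above 0. That scaling moved the median of all genes from 0.0050 to 0.077. Groups did not overlap, with Atrx-cKO above, for 13 of the 88 genes kept (12 of them canonical), where 4.3% of genes tested did so, and for none with Atrx-cKO below, where 4.01% did. The 12 canonical genes were *Rpl30*, *Rpl17*, *Rpl6*, *Rps12*, *Rps24*, *Rps15a*, *Rpl12*, *Rpl10*, *Rpl23*, *Rpl19*, *Rpl9* and *Rpl7*, and apart from *Rpl30* their log2 fold changes were 0.07 to 0.13 with unadjusted p of 0.152 or more in edgeR.

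Summed over all 92 genes, the level was 23292, 20850 and 20504 CPM in Atrx-cKO and 20872, 20151 and 20490 CPM in control. Atrx-cKO 1 was high and the other 5 libraries lay close together. The means, 21548 ± 1520 and 20504 ± 361 CPM (SD, n = 3), differed by 0.07 on the log2 scale, less than the spread within Atrx-cKO (exact two-sided permutation p = 0.4). Without Atrx-cKO 1 the difference was 0.01. Scaled by library size alone, the sums were 23469, 21575 and 21201 CPM in Atrx-cKO and 21890, 19021 and 19134 CPM in control. The genes thus took 2.12% to 2.35% of the counts on genes in Atrx-cKO and 1.90% to 2.19% in control (exact two-sided permutation p = 0.3). The large subunit summed to 1.37 to 1.41 times the CPM of the small subunit in every library, and its log2 ratio differed by -0.01 between the genotypes (exact permutation p = 0.6). The median coefficient of variation of a canonical gene was 7.94% among the Atrx-cKO libraries and 3.20% among the control libraries. Atrx-cKO 1 also had the highest neutrophil markers, 12719 CPM over 8 genes against 7387 to 10597 CPM in the other libraries, and their part in its ribosomal protein level was not tested.

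**Figure D3:**
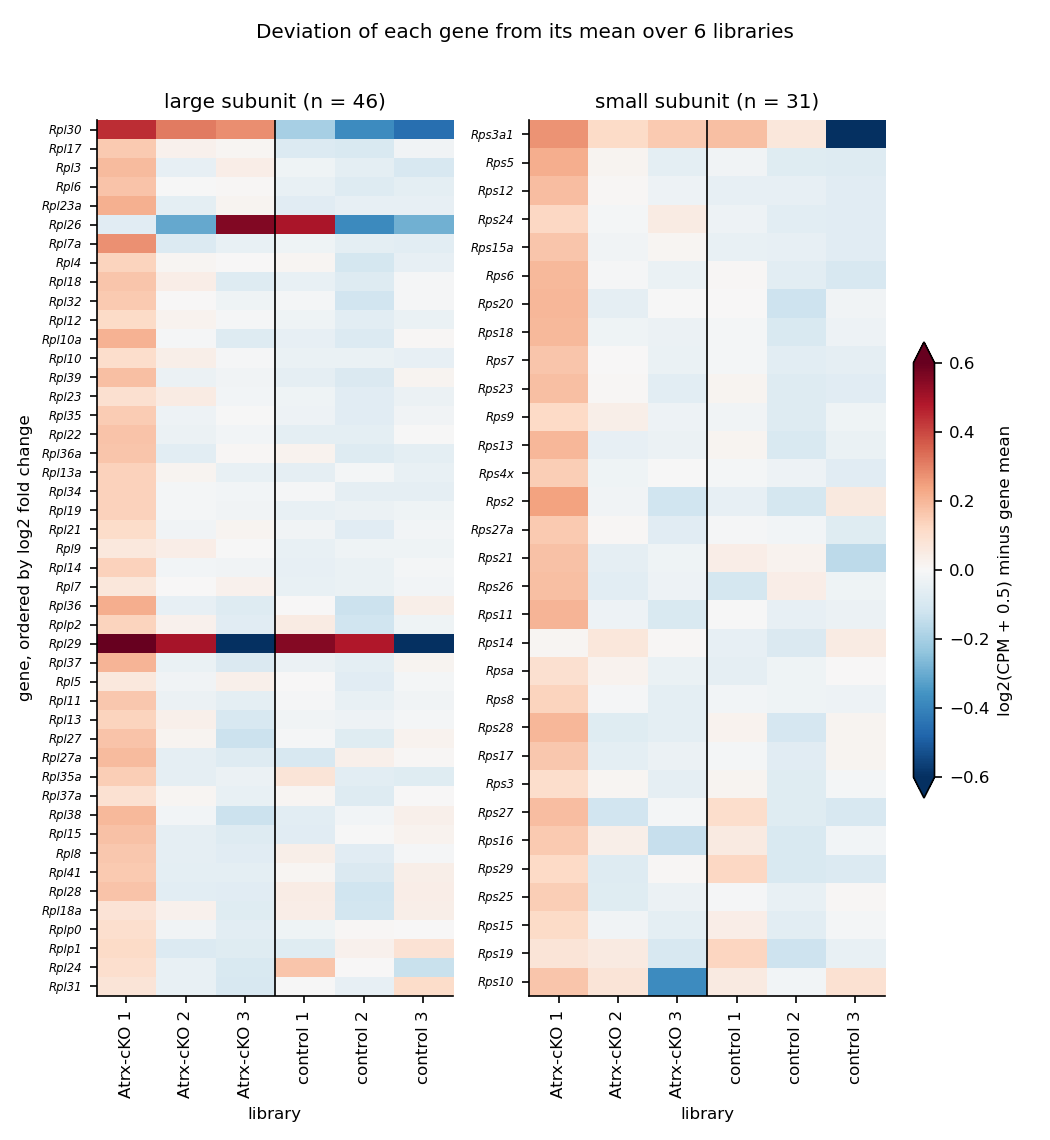
Deviation of log2(CPM + 0.5) from the gene mean over 6 libraries for the 46 large-subunit and 31 small-subunit genes, ordered by log2 fold change, on a colour scale that saturates beyond 0.6. Rpl30 is the row with the widest split by genotype among the 12 whose libraries do not overlap, the Atrx-cKO 1 column is high for 71 of 77 genes, and Rpl26, Rpl29 and Rps3a1 vary between libraries of 1 genotype.

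Levels were compared between genes per kilobase of annotated exon. *Rplp1*, a protein of the stalk that recruits translation factors to the ribosome, was highest in control at 933 ± 51.1 CPM per kb (SD, n = 3), and 916 ± 71.4 in Atrx-cKO. *Rplp0*, the base of the stalk, followed at 495 ± 5.85 CPM per kb in control and 499 ± 29.98 in Atrx-cKO. *Rps15*, *Rpl8* and *Rpl4* were next in control, at 385 ± 14.0, 329 ± 11.9 and 311 ± 12.6 CPM per kb. *Rpl8* and *Rpl4* differed by less than their summed SDs, and the levels then fell gradually over the family. These values divide by all annotated exon bases, and the order depends on that length. *Rps15a*, low in the order at 27.0 CPM per kb of its 6270 exon bases, stood at 434 CPM per kb of coding sequence in control, and *Rpl30* at 23.9 and 209.

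**Figure D4:**
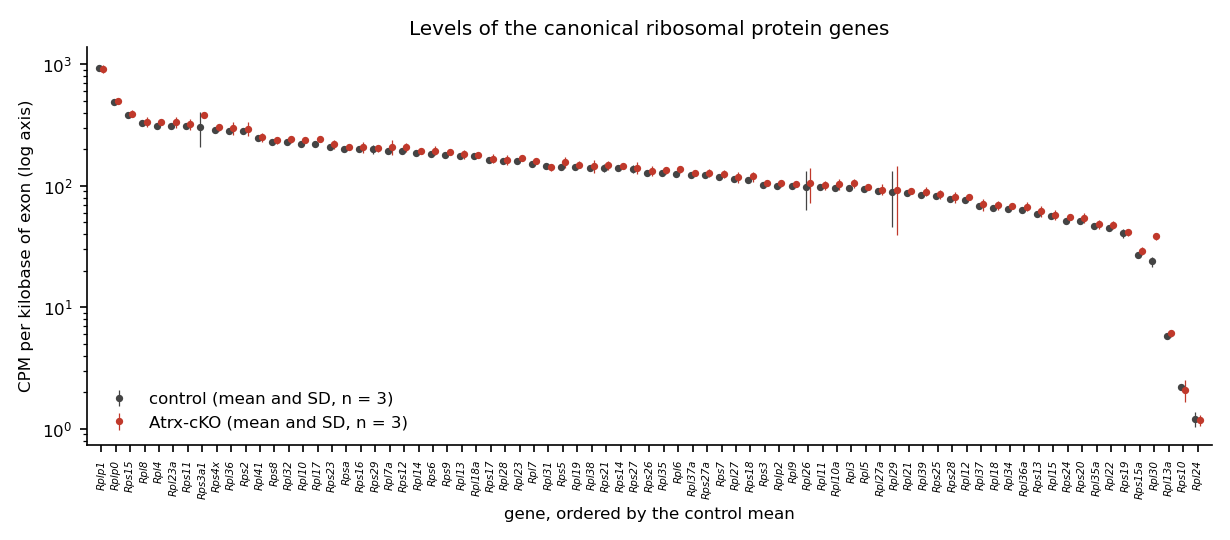
CPM per kilobase of exon (log axis, mean and SD of 3 libraries per genotype) of the 77 canonical genes, ordered by the control mean. The genotypes overlie each other apart from Rpl30, at 23.9 in control and 38.5 in Atrx-cKO, and Rpl13a, Rps10 and Rpl24 lie far below the rest.

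No difference was detected in the stalk genes. *Rplp0* stood at 884, 812 and 789 CPM in Atrx-cKO and 811, 828 and 827 CPM in control, a log2 fold change of 0.01 with a 95% confidence interval of -0.20 to 0.22. *Rplp1* had a log2 fold change of -0.03 and *Rplp2* of 0.06, with unadjusted p of 0.795 and 0.496 in edgeR. The 4 canonical genes on chromosome X, where *Atrx* lies, were *Rpl10*, *Rpl39*, *Rpl36a* and *Rps4x*, and their log2 fold changes were 0.09, 0.08, 0.08 and 0.08. *Rpl17*, a protein near the exit of the peptide tunnel, stood at 344, 315 and 312 CPM against 292, 290 and 304 CPM, a log2 fold change of 0.13 (SE 0.083).

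Counts were very low for 3 canonical genes. *Rpl24* stood at 1.07 to 1.44 CPM over the 6 libraries, *Rps10* at 3.68 to 5.59 CPM and *Rpl13a* at 12.1 to 13.9 CPM, where the lowest value of any other canonical gene was the 36.2 CPM of *Rpl29* in Atrx-cKO 3. Each shares exons on its own strand with another annotated gene, *Gm28037* over 47.0% of the exons of *Rpl24*, *RPS10-NUDT3* over 20.6% of those of *Rps10* and *Gm45713* over 29.4% of those of *Rpl13a*. These 3 genes were at 0 counts in every library. How reads that fit 2 genes were counted is not given in the sources used here, and 0.644% to 0.701% of the entries of each table were listed as ambiguous.

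Retrocopies bore on many of the genes. Of the 77 canonical genes, 74 had at least 1 other annotated gene with a transcript that matched their coding sequence at 95% identity or more. The median was 6, with up to 59 for *Rpl21*. Genes that overlap the canonical gene itself are among these copies, as *Gm45713* for *Rpl13a* and *RPS10-NUDT3* for *Rps10*. The counts on such copies were a median of 0.694% of those on the gene itself, and over 5% for 11 canonical genes. These counts, and the sums of gene and copies below, leave out entries listed as not uniquely aligned. In 3 genes the level varied between libraries of 1 genotype far beyond the rest of the family, and these were chosen for description after their values were seen.

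*Rpl26*, a large-subunit protein that also binds the p53 mRNA, stood at 136, 115 and 210 CPM in Atrx-cKO and 201, 110 and 117 CPM in control. Atrx-cKO 3 and control 1 were high and the other 4 libraries low, so the genotypes overlapped. The processed pseudogene *Gm15772* (chr5:3236431-3236868) was its mirror image, at 53.7, 48.9 and 0.628 CPM in Atrx-cKO and 0.666, 47.2 and 48.7 CPM in control. *Gm15772* matches the *Rpl26* coding sequence at 99.54% over 435 bases, with the substitutions C177T and T288C. The stretch around the first of them is shown for both, with the differing base in capitals.
Rpl26: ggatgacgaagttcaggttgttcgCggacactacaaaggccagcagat
Gm15772: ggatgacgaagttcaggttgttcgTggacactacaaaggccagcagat
Together with its 6 copies, *Rpl26* stood at 157 to 210 CPM, and the highest library was 1.34 times the lowest against 1.91 times for *Rpl26* alone.

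*Rps3a1*, a small-subunit protein, stood at 394, 355 and 365 CPM in Atrx-cKO and 370, 343 and 189 CPM in control. Control 3 alone was low, and the log2 fold change of 0.30 (SE 0.23) was 0.045 without it. Its copies were high in that library, *Rps3a3* (chr13:108670603-108671397) at 141 CPM against 70.0 to 76.5 CPM in the others and *Rps3a2* (chr14:88123017-88123808) at 33.4 CPM against 17.1 to 19.6 CPM. *Rps3a3* differs from *Rps3a1* by 8 substitutions over 792 coding bases and *Rps3a2* by 4, and the windows below hold 2 of each, T216C and T260C in *Rps3a3* and A645T and T668C in *Rps3a2*.
Rps3a1: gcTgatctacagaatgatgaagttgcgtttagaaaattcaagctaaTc
Rps3a3: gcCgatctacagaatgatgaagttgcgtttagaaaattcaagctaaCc
Rps3a1: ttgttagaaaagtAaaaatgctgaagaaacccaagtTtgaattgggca
Rps3a2: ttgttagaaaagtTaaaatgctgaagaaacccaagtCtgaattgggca
With its 6 copies the sum stood at 364 to 490 CPM, and the highest library was 1.35 times the lowest against 2.09 times for *Rps3a1* alone.

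*Rpl29*, a heparin-binding protein of the large subunit whose loss in mice gives small stature and fragile bones, varied most of all. It stood at 151, 126 and 36.2 CPM in Atrx-cKO and 131, 125 and 44.7 CPM in control. Replicate 3 was low in each genotype, and the log2 fold change was 0.06 with a 95% confidence interval of -1.22 to 1.34. Its copies *Gm8210* and *Gm13841*, each with the substitutions C72A, C300T and T423C, were highest in the same libraries, *Gm8210* at 8.15 and 8.51 CPM against 4.29 to 6.14 CPM in the other 4. They made up little of the difference, and with 29 copies added the highest library was still 3.12 times the lowest, against 4.17 times for *Rpl29* alone. Adding copies barely altered *Rpl30*, from 1.87 to 1.83 times.

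**Figure D5:**
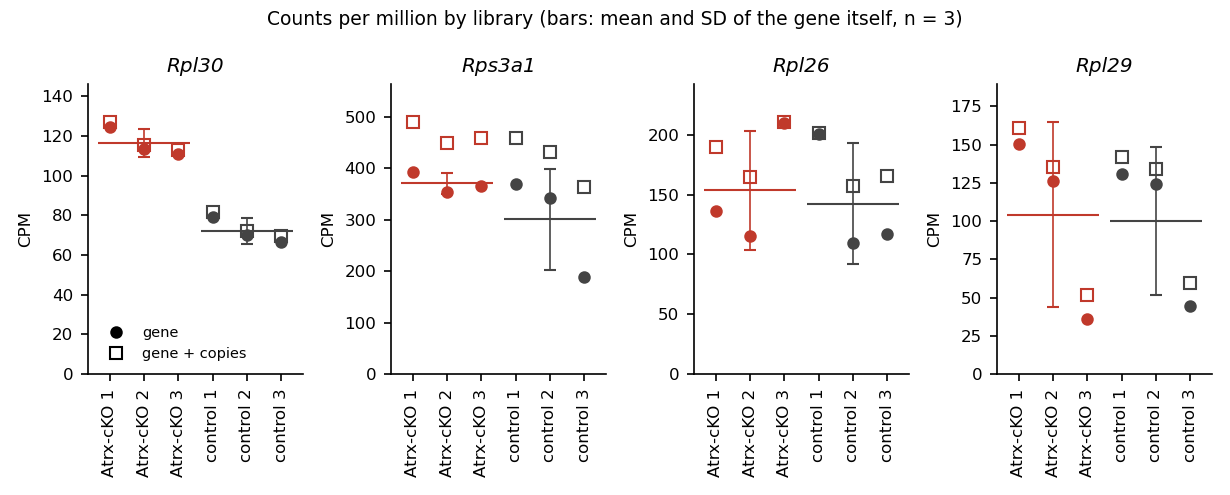
CPM in each library of Rpl30, Rps3a1, Rpl26 and Rpl29 (filled circles, with mean and SD of 3 libraries per genotype) and of each gene with its near-identical copies added (open squares). Rpl30 splits by genotype with or without copies, and Rpl29 stays low in replicate 3 of each genotype. Adding copies narrows the spread of Rps3a1 and Rpl26 without removing it.

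The paralogs were mostly low, none of the 8 passed the adjusted threshold in edgeR or DESeq2, and none had an unadjusted p under 0.05 in edgeR. *Rpl3l*, which replaces *Rpl3* in heart and skeletal muscle, stood at 11.2, 5.50 and 3.24 CPM in Atrx-cKO and 5.03, 5.88 and 33.4 CPM in control. Control 3, the library with the highest skeletal muscle markers, was also by far the highest in *Rpl3l*, and Atrx-cKO 1 was second in both. Its log2 fold change of -1.14 (SE 0.77, adjusted p = 0.992 in edgeR) was 0.27 without control 3. *Rpl3* itself, its ubiquitous counterpart, stood at 298 to 364 CPM.

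*Rps27l*, a p53-induced relative of *Rps27*, *Rpl22l1*, a paralog of *Rpl22*, and *Rpl7l1* had log2 fold changes of 0.12, 0.09 and 0.06 at 36.8 to 77.6 CPM. *Rpl39l*, a paralog known from testis, *Rps27rt* and *Rpl36al*, a retrocopy of *Rpl36a*, stood below 10 CPM in every library with log2 fold changes of -0.09, -0.10 and -0.16. *Rpl36al* shares 24.5% of its exons on its own strand with *Gm49383*, which held 270 to 375 counts a library. *Rps27rt* matches the *Rps27* coding sequence at 100% over 252 bases. The part of this overlap and match in their low counts was not tested. *Rpl10l*, the testis paralog of *Rpl10*, was at 0 counts in every library, where 3 counts would be 0.0450 to 0.0630 CPM. *Rps4l*, an autosomal retrocopy of the X-linked *Rps4x* that the annotation lists as a pseudogene and that the name rule therefore left out, stood at 4.98, 4.48 and 4.28 CPM in Atrx-cKO and 5.94, 8.14 and 7.44 CPM in control. Its libraries did not overlap, and its log2 fold change was -0.65 (SE 0.17, unadjusted p = 0.00496 and adjusted p = 0.992 in edgeR, adjusted p = 0.190 in DESeq2).

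Of the 7 other genes with a matching name, *Rps19bp1* stood at 8.32 to 11.7 CPM with a log2 fold change of -0.06. *Rps12-ps3*, the gene with the highest estimate of the 88 at 0.85 (SE 0.42), rested on 8 to 25 counts per library, and *Rpl10-ps3* at -0.63 (SE 0.42) on 15 to 45. *Rpl9-ps6* had a log2 fold change of 0.34 (SE 0.27). *Rpl36a-ps1*, *Rpl9-ps1* and *Rpl36-ps4* did not pass the expression filter, as *Rpl10l* did not.

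Promoters were looked up in RefSeq for GRCm38.p6, from 250 bases before to 50 after the annotated start. An entry was found for 57 of the 77 canonical genes, and *Rpl30*, *Rpl29*, *Rpl3*, *Rpl8* and *Rplp1* are among the 20 without one. The ETS-type motif CCGGAAG, read on either strand, was held by 24 of the 57, or 42.1%, against 9.93% of all 27025 genes with an entry. A start at C followed by 4 bases that are each C or T was held by 13 of the 57, or 22.8%, against 3.01% of all genes. The YY1-type motif AAGATGGC on either strand was held by 5, or 8.77% against 3.19%, and TATAAA on the coding strand in the 50 bases before the start by 0, against 3.15%. The windows below show the 4 genes of highest level per kilobase whose annotated start opens such a tract, 20 bases before the start and 10 from it on, with the run of pyrimidines from the start in capitals.
Rpl14 (chr9:120571497-120571526, plus strand): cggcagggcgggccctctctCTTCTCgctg
Rps6 (chr4:86857358-86857387, minus strand): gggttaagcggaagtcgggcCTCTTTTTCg
Rpl28 (chr7:4792945-4792974, plus strand): tcgtcccgcctctcgtgtctCTCTTTCCgt
Rpl38 (chr11:114668560-114668589, plus strand): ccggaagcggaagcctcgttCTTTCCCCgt
The log2 fold changes differed little between genes with and without a motif. The median was 0.07 over the 24 genes with CCGGAAG and 0.08 over the 33 without it, and 0.06 over the 13 genes with the pyrimidine start and 0.07 over the 44 without it.

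Genes that act on ribosomes were described by lists. Of the 40 ribosome biogenesis genes, 33 had a log2 fold change above 0, where 51.2% of all genes tested did. The median was 0.07, beside 0.0050 over all genes tested. *Pes1*, a factor of large-subunit assembly, stood at 59.9, 42.0 and 44.2 CPM in Atrx-cKO and 37.2, 38.1 and 40.5 CPM in control. As for the ribosomal protein genes, Atrx-cKO 1 was the highest library, also in nucleolin (*Ncl*) at 491 CPM against 299 to 334 CPM in the other 5 and in nucleophosmin (*Npm1*) at 349 against 201 to 226 CPM.

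The 15 translation factors and related genes with 5′ TOP mRNAs had a median of 0.05, with 12 above 0 and none called. *Eef1a1*, the elongation factor that brings aminoacyl-tRNA to the ribosome, stood at 3021 to 3268 CPM in Atrx-cKO and 3019 to 3172 CPM in control. *Fau* and *Rack1*, which encode ribosomal proteins under other names, had log2 fold changes of 0.06 and 0.07. Of the 11 genes that control translation of ribosomal protein mRNAs, among them *Mtor*, *Larp1* and the S6 kinases, 4 were above 0, with a median of -0.03 and a range of -0.11 to 0.08. The genes of mitochondrial ribosomal proteins, 77 of 78 tested, had a median of 0.04 with 52 above 0 and none called. None of these lists held a gene past the adjusted threshold in edgeR or DESeq2. *Pes1* was the single gene among them with an unadjusted p under 0.05 in edgeR, where 1.59% of all genes tested were higher and 2.05% lower.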

How the data were processed

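RNA sequencing (poly(A)-selected, 150-base paired-end reads) of 3 Atrx-cKO and 3 control tibia libraries was deposited by the authors as 1 table of raw counts per gene and library. GRCm38 and DESeq2 are named in the submitters' processing notes, and the aligner and counting program are not given in the sources used here. Entries that name no gene, 56.2% to 57.2% of the entries in a table, entered neither library sizes nor tests. They include those listed as not uniquely aligned. Genes were named by GENCODE M21 on GRCm38, which matched 55141 of 55401 identifiers.

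Counts of 20636 genes kept by filterByExpr were tested in edgeR 4.0.16 (TMM, quasi-likelihood test, genotype alone; R 4.3.3), with DESeq2 1.42.0 as an alternative, Benjamini-Hochberg adjusted over all genes tested. The fits were tested on simulated counts. Single values per library were compared by exact two-sided permutation tests. Copies were found with BLAST+ 2.17.0 against GENCODE transcripts (at least 95% identity over 150 bases and 50% of the coding sequence, or 90% of a coding sequence too short for that). The labels do not say that the libraries came from separate mice, so p-values measure only the spread between these libraries, which may be technical. Libraries of 1 genotype differed beyond counting error: chi-square over its degrees of freedom, across genes, was 15.8 to 137.

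Named genes were *Rpl30*, genes called in either tool, the 5 highest and lowest in log2 fold change and in level per kilobase, the paralogs, stalk and X-linked genes, *Fau*, *Rack1* and the neighbors of *Rpl30*. A further gene under this rule is not reported here. *Rpl26*, *Rpl29*, *Rpl6*, *Rpl31*, *Rps25*, *Rps15*, *Pes1*, *Ncl*, *Npm1*, *Eef1a1* and the copies were named after their values were seen. *Rpl30*, the members and the lists were chosen with earlier results of these data known.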

Additional observations from a re-analysis of the deposited data

How the results depend on the processing

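The difference in *Rpl30* kept its direction in all 19 alternatives run for it, and *Rpl30* ranked first of the 77 canonical genes in each. Its adjusted p fell under 0.05 in DESeq2 (log2 fold change 0.69, adjusted p 1.70e-05) and in edgeR without the filter on low counts (0.69, 0.0270), and each of these fits then called 1 ribosomal protein gene higher. Fits without 1 library gave log2 fold changes of 0.62 to 0.76 in edgeR, with 0 members called. In DESeq2 fits without 1 library, an alternative chosen after seeing the data like the fit with copies added, they were 0.63 to 0.77 with 1 member called in each and 1 to 3 higher at an unadjusted p under 0.05. Without the filter 1 member was lower at an unadjusted p under 0.05. The cause of these differences between tools was not tested.

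The median of the genes that control translation of ribosomal protein mRNAs, -0.030, was 0.045 under scaling by library size alone, which moved the median of all genes from 0.0050 to 0.077, and ran from -0.058 to 0.014 without 1 library. Named genes that changed sign had low counts or rested on 1 library. *Rpl39l* was at 0.00017 under library size alone. Without 1 library, in edgeR or DESeq2, *Rpl39l* ran from -0.28 to 0.075, *Rps27rt* from -0.24 to 0.026, *Rpl36al* from -0.61 to 0.056 and *Rpl3l* from -1.75 to 0.27, the last without control 3. With the replicate number as a block, *Rpl30* had a log2 fold change of 0.69 with an adjusted p of 0.248, and no call of a member changed. Deviations of same-numbered libraries correlated at -0.025, 0.062 and -0.071, and those of the other pairs at -0.085 to 0.091. As both kinds of pair gave small values of either sign, they cannot decide whether the numbers pair the samples. Depth limits *Rpl24*, *Rps10* and the genes named as pseudogenes, and 3 libraries per genotype limit every exact test to 0.1.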
